A study of Mus musculus with 11 samples.

Results

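Hearts in which Cd36 had been deleted in endothelial cells (EC KO, 3 libraries) were compared with Control hearts (2 libraries), which makes 5 of the 11 mouse heart libraries of the study. The members were taken by their labels, and all 23420 genes of the table were followed, of which 12976 passed the filter on low values and were tested. In EC KO the deletion was made through Tie2-cre, and the labels name no Cre for Control. Every library, Control included, carries one strain label, a cross of Cd36 loxp mice. The 6 remaining libraries were 3 with a deletion in cardiomyocytes through MHC-cre (CM KO) and 3 labelled as a total knockout (Total KO), for which the labels do not say how it was made. No treatment, age or sex is given in the sources used here. Nothing says that the libraries came from separate animals, so each p-value measures only how these libraries spread, which may be technical.

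CD36 is a membrane protein that binds and takes up long-chain fatty acids, and in the heart it is found both in the capillary endothelium and in cardiomyocytes. Fatty acids that reach the myocardium from the blood first cross the endothelium, and in the cardiomyocyte they are burned for energy and also act as ligands of the PPAR family of nuclear receptors. Tie2 is an endothelial receptor gene, and Cre driven from it is also known to act in blood-forming cells. The RNA was taken from whole heart tissue, so the values sum all cell types, and fewer cells of a type and less RNA per cell cannot be told apart.

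Values are normalized read counts per gene. Differences are log2 of the value plus 1, given with the SE from limma, and folds come from the same scale, which understates changes of low genes. Each mean is followed by its SD (n = 2 in Control, n = 3 in EC KO). The 5 libraries held 2268403 to 18258252 reads recovered from the values. EC KO replicate 1 was the shallow one (2268403), and there 1 read is worth 6.04 units against 0.746 to 0.884 in the other 4. It also lay apart from all other libraries on the second principal component (-46.27, the others from -18.06 to 15.45). All 5 libraries expressed the Y-linked genes (lowest member 271.9 to 337), with Xist between 0.884 and 18.1.

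The targeted gene was examined first. Cd36 (chr5:17781690-17888801, minus strand, GRCm38) read 44530 and 35425 in Control and 30308, 27804 and 25758 in EC KO. The 3 knockout libraries lay below both Control libraries, at a mean of 27957 ± 2278 against 39977 ± 6438, or 69.9% of Control. The difference of -0.51 ± 0.17 did not pass (limma, adjusted p = 0.298). Cd36 stood higher in EC KO than in CM KO (0.52, adjusted p = 0.0298), and its difference from Total KO was 0.40 (adjusted p = 0.393). These reads are summed over the whole gene and over all cell types. The 69.9% is therefore not a measure of how much endothelial Cd36 was deleted.

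Of the 12976 genes tested, 41 passed between EC KO and Control (0.316%; limma, adjusted p under 0.05), 22 higher (0.17%) and 19 lower (0.146%). The EC KO and Control libraries did not overlap for any of the 41, which was the case for 25.1% of all genes tested (12% higher, 13.2% lower). Of the 41, 40 were also called by edgeR and 41 by DESeq2 on the recovered reads. Over all 12976 genes edgeR called 50 and DESeq2 162, and the DESeq2 counts given below for gene lists have this larger background. When the values were rescaled by library totals, 14 genes were higher and 21 lower. The calls depended on single libraries. Without Control replicate 2, 5 genes passed, 3 of them among the 41; without EC KO replicate 2, 7 passed, all among the 41; and without the shallow EC KO replicate 1, 12 passed, 11 of them among the 41. Syt12 and Fkbp5 passed whichever of the 11 libraries was left out, and all 41 kept their direction in these fits.

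**Figure D1:**
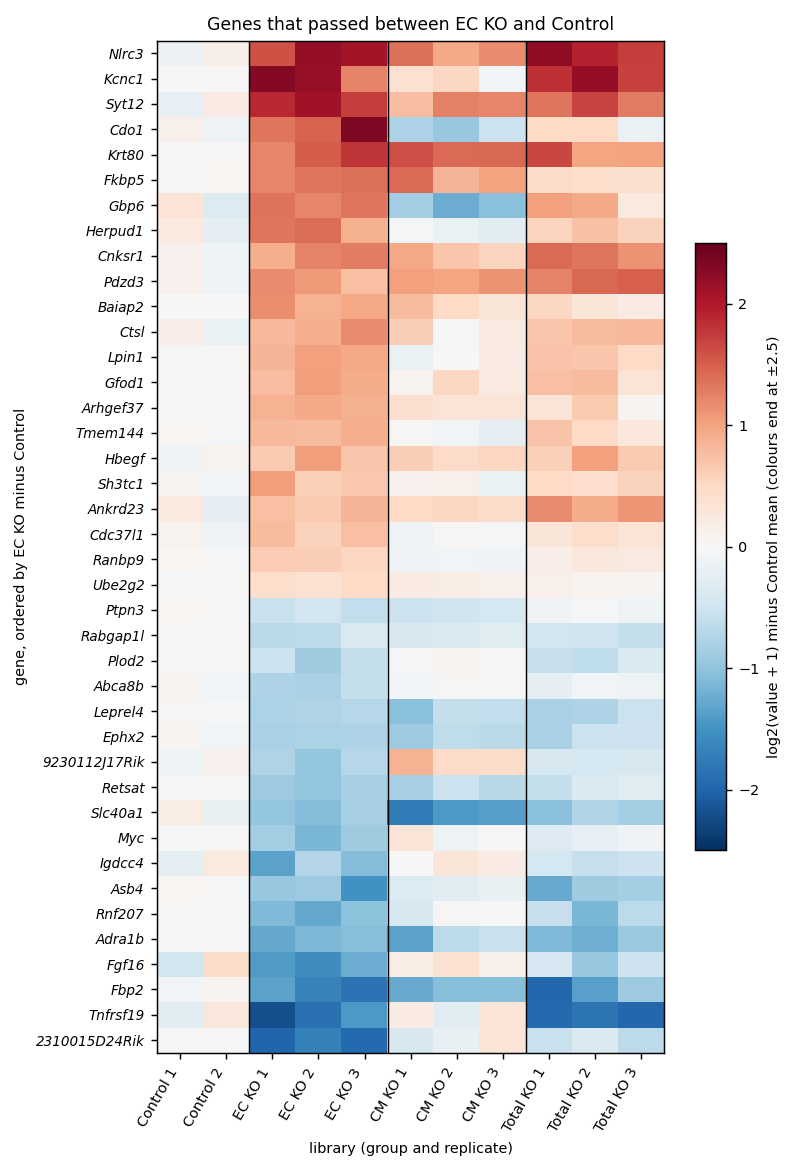
Each row is 1 of 40 of the 41 genes that passed and each column 1 of the 11 libraries. Colour gives log2 of the value plus 1 minus the Control mean, ending at ±2.5. The EC KO columns are red for the higher genes and blue for the lower ones in all 3 libraries.

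The sequences below are the 250 bases before a RefSeq start of Herpud1 and of Fkbp5, 2 of the genes that rose, shown because each holds a motif known from the regulation of stress or clock genes. They are RefSeq sequences of build GRCm38.p6, given 5′ to 3′ on the gene's own strand, with the motif in capitals. In Herpud1 (chr8:94386179-94386428, plus strand) the capitals mark the ER stress response element II. In Fkbp5 (chr17:28486150-28486399, minus strand) they mark an E-box, CACGTG. This Fkbp5 start lies inside the gene's GENCODE span, chr17:28399094-28517527, and not at its outer end.
Herpud1: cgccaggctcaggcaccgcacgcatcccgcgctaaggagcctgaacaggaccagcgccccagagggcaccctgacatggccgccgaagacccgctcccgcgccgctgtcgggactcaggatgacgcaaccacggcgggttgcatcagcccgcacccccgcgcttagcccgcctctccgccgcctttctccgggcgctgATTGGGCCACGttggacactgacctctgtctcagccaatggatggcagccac
Fkbp5: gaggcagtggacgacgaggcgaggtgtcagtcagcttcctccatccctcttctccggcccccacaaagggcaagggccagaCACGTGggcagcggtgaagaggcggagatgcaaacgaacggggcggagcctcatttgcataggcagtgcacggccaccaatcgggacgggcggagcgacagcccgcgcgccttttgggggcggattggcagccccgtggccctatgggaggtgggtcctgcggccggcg
The first motif begins 52 bases before the start and was found in 10 of 32851 such promoters (0.0304%, both strands searched). The E-box was found in 6.02% of promoters, and in a promoter of 1854 of 27025 genes (6.86%). Among the 25 of the 41 genes with a promoter in the table, 6 held an E-box (Fkbp5, Cnksr1, Tnfrsf19, Fbp2, Ctsl and Sh3tc1). The search also covered other motifs. The cAMP response element was found in 1 of the 25 genes (Tmem144) and in 1.77% of all genes. The ER stress response element, the D-box, the PPAR response element and the glucocorticoid response element were each found in 0 of the 25. Their shares over all genes were 0.13%, 0.977%, 0.0407% and 0.0111%. With shares this low, 0 of 25 cannot tell these genes from others. A match describes the letters and is not evidence of binding.

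Retsat and Ephx2 were among the genes that fell. Retsat, which saturates retinol, read 1721 and 1756 against 931, 878 and 981 and fell 1.87-fold (adjusted p = 0.00786). Ephx2, the soluble epoxide hydrolase that breaks down fatty acid epoxides, read 9674 and 8835 against 5257, 5319 and 5402 and fell 1.74-fold (adjusted p = 0.0153). For both genes the knockout libraries lay close together and well under Control.

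Lpin1 moved the other way. It encodes lipin 1, a phosphatidate phosphatase of triglyceride synthesis that also acts as a coactivator with PGC-1. Its levels were 2253 and 2339 in Control and 4127, 4659 and 4475 in EC KO, with no overlap, and it rose 1.92-fold (0.94 ± 0.12, adjusted p = 0.00786). Lpin1 did not pass without Control replicate 2 and neither did Retsat, with log2 differences that stayed between 0.90 and 0.99 for Lpin1 and between -0.94 and -0.86 for Retsat over the left-out libraries. Plin3, a lipid droplet coat protein gene, read 5473 and 5427 against 7740, 7800 and 7745 but did not pass (0.51, adjusted p = 0.0725).

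Across the 29 tested PPAR target genes, 28 stood lower in EC KO, with a median difference of -0.31 against -0.01 over all genes. Of these 1 passed, DESeq2 called 3 (Acot2 and Cidea among them), and 10 had an unadjusted p under 0.05 in the lower direction, where the share over all genes was 5.62%. Of 25 genes of mitochondrial beta-oxidation, limma, edgeR and DESeq2 each called 0, 7 had an unadjusted p under 0.05, all lower, and the median was -0.22. The thioesterase gene Acot2 read 2912 and 2817 in Control and 1305, 1426 and 1275 in EC KO, just outside the threshold (-1.10 ± 0.21, adjusted p = 0.0503); it has a near-identical neighbour, Acot1, so the split of reads between them is uncertain. Decr1, Eci1 and Mlycd, which serve the oxidation of unsaturated fatty acids and the control of malonyl-CoA, stood at -0.43, -0.44 and -0.41 (adjusted p = 0.365, 0.374 and 0.368). Pdk4, the kinase that shuts off pyruvate dehydrogenase, read 78749 and 66347 against 36477, 51477 and 25641 (-0.99 ± 0.54, adjusted p = 0.561), and Ucp3, a mitochondrial carrier, stood at -1.24 ± 0.54 (adjusted p = 0.449). The libraries of both genes did not overlap, and the EC KO libraries were spread widely.

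No gene of fatty acid uptake or of lipid handling at the capillary wall passed. Of 20 genes of uptake and trafficking limma, edgeR and DESeq2 each called 0, 5 had an unadjusted p under 0.05, all lower, and the median was -0.13. Slc27a1, a fatty acid transport protein, stood at -0.45 (adjusted p = 0.211). The fatty acid binding protein genes Fabp3, Fabp4 and Fabp5 stood at -0.19, -0.35 and -0.65 (adjusted p = 0.627, 0.565 and 0.331). Fabp4, which is abundant in capillary endothelium, read 19352 and 16462 against 15359, 13979 and 12778. Gpihbp1, which holds lipoprotein lipase on the endothelium, and Lpl, the lipase itself, stood at 0.23 and 0.29, with overlapping libraries (adjusted p = 0.576 and 0.735). Angptl4, an inhibitor of that lipase, read 1164 and 1258 against 659, 783 and 458 (-0.97 ± 0.58, adjusted p = 0.595).

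**Figure D2:**
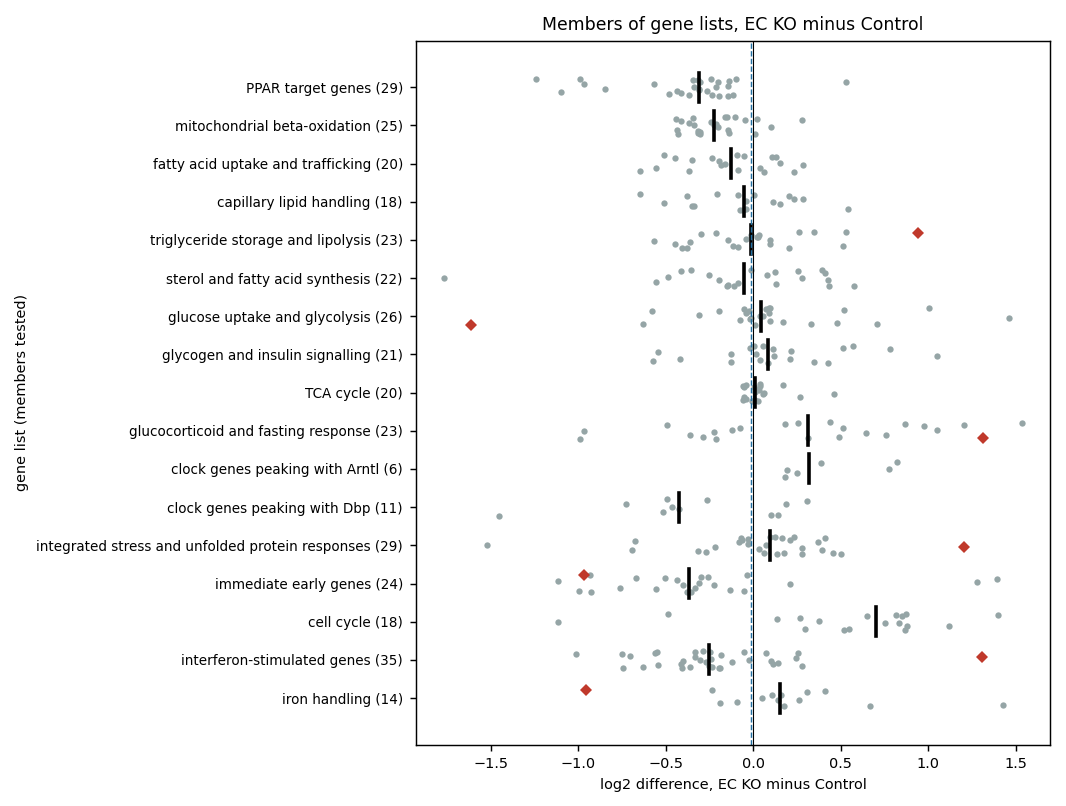
Each point is a tested member of 1 of 17 gene lists, with 1 PPAR target not drawn, placed by its log2 difference between EC KO and Control. Red diamonds passed, black bars are list medians and the dashed line is the median of all genes (-0.01); the PPAR target bar lies at -0.31 and the cell cycle bar at 0.70.

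**Figure D3:**
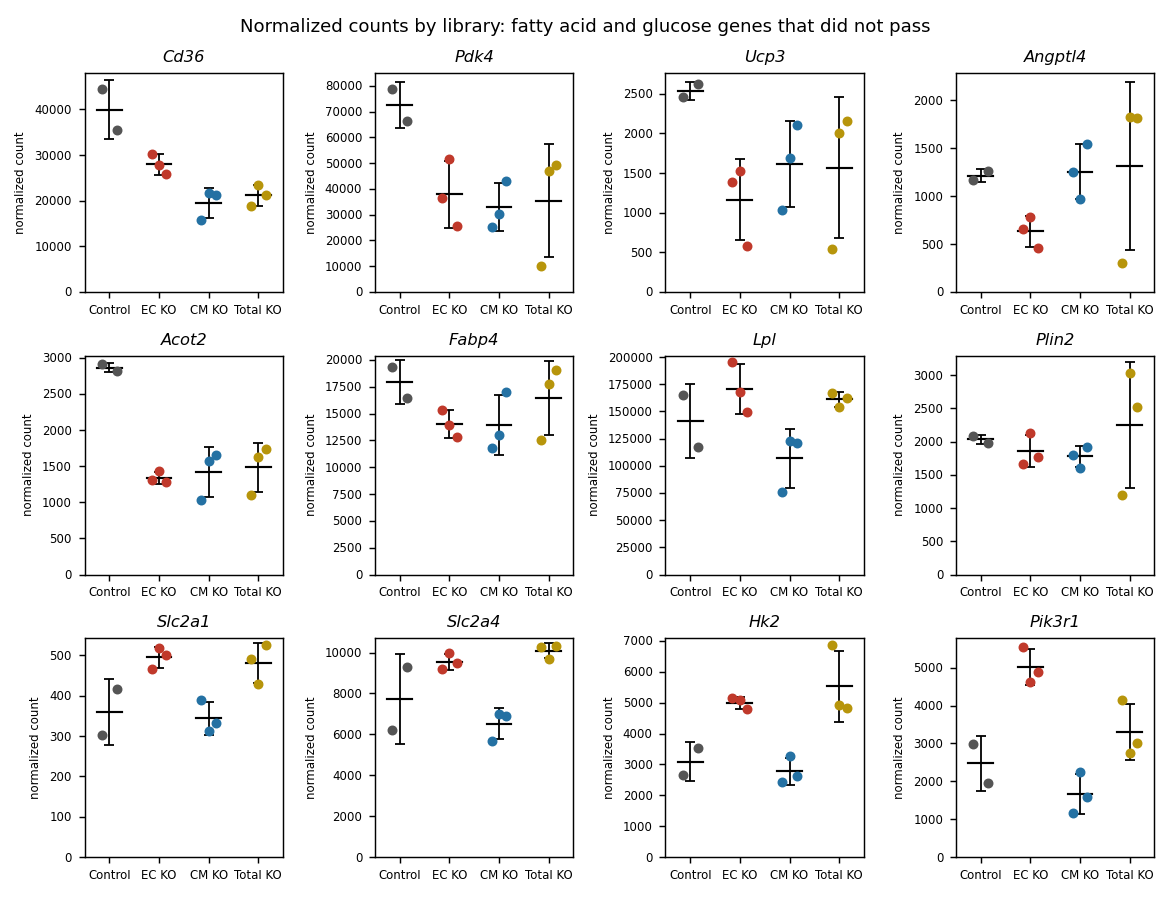
Normalized counts of 12 fatty acid and glucose genes that did not pass between EC KO and Control. Points are libraries by group, and bars give the mean ± SD. Cd36 and Acot2 lie lower in all 3 EC KO libraries than in both Control libraries, and Hk2 and Pik3r1 lie higher.

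Among genes of glucose use, Fbp2 fell. It encodes the muscle fructose bisphosphatase, which works against glycolysis, and read 760 and 827 in Control and 314, 248 and 220 in EC KO (3.06-fold lower, -1.62 ± 0.24, adjusted p = 0.0153). The list of 26 glucose uptake and glycolysis genes had 1 member that passed, Fbp2, and a median of 0.04 (-0.03 without Control replicate 1), while DESeq2 called 3 (Fbp2, Hk2 and Pfkfb2). Hk2, a muscle hexokinase, read 2650 and 3538 against 5136, 5086 and 4780, apart but not passing (0.71 ± 0.17, adjusted p = 0.131). Pfkfb2, which makes the activator of phosphofructokinase, read 1346 and 1167 against 2876, 2323 and 2376 (adjusted p = 0.121). The glucose transporter genes Slc2a1 and Slc2a4 stood at 0.48 and 0.33 (adjusted p = 0.275 and 0.48). Pcx, pyruvate carboxylase, stood at 0.65 (adjusted p = 0.0811), and Pdp1, a phosphatase that activates pyruvate dehydrogenase, at -0.45 (adjusted p = 0.0865). Of 21 genes of glycogen and insulin signalling 0 passed by limma or edgeR and 1 by DESeq2 (Pik3r1), with 4 higher and 1 lower at an unadjusted p under 0.05. Pik3r1, the regulatory subunit of PI 3-kinase, read 2986 and 1956 against 5553, 4608 and 4888 (1.05 ± 0.25, adjusted p = 0.124).

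Fkbp5 (chr17:28399094-28517527, minus strand), a cochaperone that restrains the glucocorticoid receptor and is induced by it, read 816 and 880 in Control and 1976, 2157 and 2201 in EC KO. The groups were far apart and each was tight, with a 2.49-fold rise (adjusted p = 0.00232). It was also the 1 gene of the 41 that differed from Total KO, where it averaged 1149 (EC KO minus Total KO 0.88, adjusted p = 0.027). In CM KO it averaged 1830 and was likewise higher than in Control (1.09, limma adjusted p = 0.00198). EC KO and CM KO did not differ for it (0.22, limma adjusted p = 0.214). In the list of 23 glucocorticoid and fasting genes 1 passed (Fkbp5; 4 by DESeq2, with Cdkn1a, Pik3r1 and Trim63), 12 had an unadjusted p under 0.05, all higher, and the median was 0.31. The share with an unadjusted p under 0.05 in that direction was 4.83% over all genes. Of the 23 members 14 stood higher and 9 lower. Per1, Sgk1 and Tsc22d3 were among the lower ones, at -0.50, -0.29 and -0.12 (limma adjusted p = 0.546, 0.737 and 0.941), as were Pdk4 and Angptl4. The summed level of the list was 100976 to 117684 in Control and 72613 to 98484 in EC KO. Pdk4, at the levels given above, held most of that sum in Control. The lower sum therefore mainly follows Pdk4 and does not describe the list as a whole. Cdkn1a, the cell cycle inhibitor p21, read 1440 and 1270 against 3438, 2831 and 3107 (2.30-fold, adjusted p = 0.126), and Trim63, a muscle ubiquitin ligase, stood at 0.49 (adjusted p = 0.189). Clock genes that peak with Arntl had a median of 0.32 over 6, and those that peak with Dbp a median of -0.43 over 11 (-0.15 without Control replicate 2), with 0 called in either list by limma, edgeR or DESeq2 (at an unadjusted p under 0.05, 4 of the Arntl list were higher, and 3 of the Dbp list were lower and 1 higher). Arntl read 366 and 282 against 550, 513 and 593, and Dbp 310 and 484 against 163, 156 and 110. The labels give no time of day, and its part in these values was not tested.

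Herpud1, Ube2g2, Ctsl and Cdc37l1, genes of protein breakdown and folding, rose, while Rnf207, a ubiquitin ligase gene described below, fell. Herpud1, a membrane component of endoplasmic reticulum-associated degradation, read 5611 and 3965 in Control and 11909, 12420 and 8703 in EC KO (2.31-fold, adjusted p = 0.0142). Its 3 EC KO libraries lay above both Control libraries, and it did not pass without Control replicate 2, EC KO replicate 1 or EC KO replicate 2. Ube2g2, the ubiquitin-conjugating enzyme of the same degradation route, read 1371 and 1417 against 1885, 1816 and 1971 (1.36-fold, adjusted p = 0.0495). It passed in 1 of 11 fits with a library left out and in 3 of 12 other alternatives, and edgeR did not call it. Ctsl, the lysosomal protease cathepsin L, read 4270 and 3420 against 6737, 7208 and 8717 (1.96-fold, adjusted p = 0.0392). Ctsl passed in 3 of 11 fits with a library left out. Cdc37l1, a cochaperone of HSP90, read 1483 and 1325 against 2417, 2083 and 2346 (1.62-fold, adjusted p = 0.0142). In the list for the unfolded protein and integrated stress responses 1 of 29 genes passed by limma (Herpud1) and 2 by DESeq2 (Herpud1 and Atf4), and the median was 0.10 (-0.02 without Control replicate 1). Atf4, a transcription factor whose translation rises under such stress, read 968 and 939 against 1384, 1370 and 1298 (0.50, limma adjusted p = 0.0732), and Dnajb9 and Ddit3 stood at 0.37 and 0.46 (adjusted p = 0.187 and 0.219).

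Syt12 and Kcnc1 rose, and Rnf207 and Adra1b fell. Syt12, a synaptotagmin found on vesicles, read 80.1 and 108 in Control and 344, 401 and 310 in EC KO (3.73-fold higher, 1.90 ± 0.19, adjusted p = 0.00232). Kcnc1, a voltage-gated potassium channel subunit, read 24.1 and 23.9 against 121, 112 and 58.4 (3.74-fold higher, adjusted p = 0.0249), with the third EC KO library lower than the others. Rnf207, a ubiquitin ligase linked to cardiac repolarization, read 1621 and 1541 against 737, 651 and 779 (2.19-fold lower, adjusted p = 0.0155). Adra1b, an alpha-1 adrenergic receptor, read 648 and 646 against 266, 295 and 309 (2.23-fold lower, adjusted p = 0.0276). The knockout libraries of Rnf207 and Adra1b were all below the Control libraries by a wide gap. Of 26 genes listed for the action potential, which hold Rnf207 and gap junction genes beside channels, 2 passed, Kcnc1 higher and Rnf207 lower. Of 14 calcium handling genes of the sarcoplasmic reticulum each of the 3 tools called 0, with 0 at an unadjusted p under 0.05.

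Secreted factors and their receptors included Tnfrsf19, a receptor of the tumour necrosis factor family, which read 139 and 206 against 36.3, 46.0 and 61.9 (3.55-fold lower, adjusted p = 0.0142). Fgf16, a growth factor of cardiac muscle, read 83.2 and 157 against 42.3, 38.5 and 47.7 (2.64-fold lower, adjusted p = 0.0439), and Hbegf, a ligand of the EGF receptor, read 318 and 362 against 532, 699 and 549 (1.73-fold higher, adjusted p = 0.0495). The Control libraries of Fgf16 were spread widely, and both lay above the 3 EC KO libraries. Plod2, a collagen lysyl hydroxylase, fell 1.60-fold and Leprel4 (P3h4), another gene of collagen modification, fell 1.68-fold (adjusted p = 0.0473 and 0.0439). With a library left out, Plod2 and Leprel4 each passed in 1 of 11 fits, and Fgf16 and Hbegf each in 2 of 11. The list of 26 extracellular matrix genes had a median of -0.14 (-0.34 without Control replicate 1 and -0.00 without Control replicate 2); all 3 tools called 0 of them, and 1 was lower at an unadjusted p under 0.05.

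Slc40a1, the iron exporter ferroportin, read 1627 and 1253 in Control and 731, 676 and 802 in EC KO (1.94-fold lower, adjusted p = 0.0176). Hmox1, heme oxygenase 1, which frees iron from heme, read 829 and 710 against 1746, 2216 and 2266, apart but not passing by limma (1.43 ± 0.29, adjusted p = 0.0753). DESeq2 called 3 of the 14 iron genes, Slc40a1, Hmox1 and the metal transporter gene Slc39a14. Cdo1, which oxidizes cysteine, read 122 and 102 against 284, 313 and 568 (3.29-fold higher, adjusted p = 0.0277), with the third EC KO library the highest. Gbp6, an interferon-inducible guanylate-binding protein, read 448 and 276 against 900, 825 and 885 (2.47-fold higher, adjusted p = 0.0418), while the 35 interferon-stimulated genes had a median of -0.25 (0.02 without Control replicate 2 and -0.55 without Control replicate 1) and 1 that passed, Gbp6 itself. Reads of Gbp6 may be shared with an overlapping gene on the same strand. Nlrc3, an inhibitory receptor of the innate immune system, read 10.1 and 12.7 against 36.3, 55.2 and 51.3 (adjusted p = 0.0142), levels of few reads in the shallow library.

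**Figure D4:**
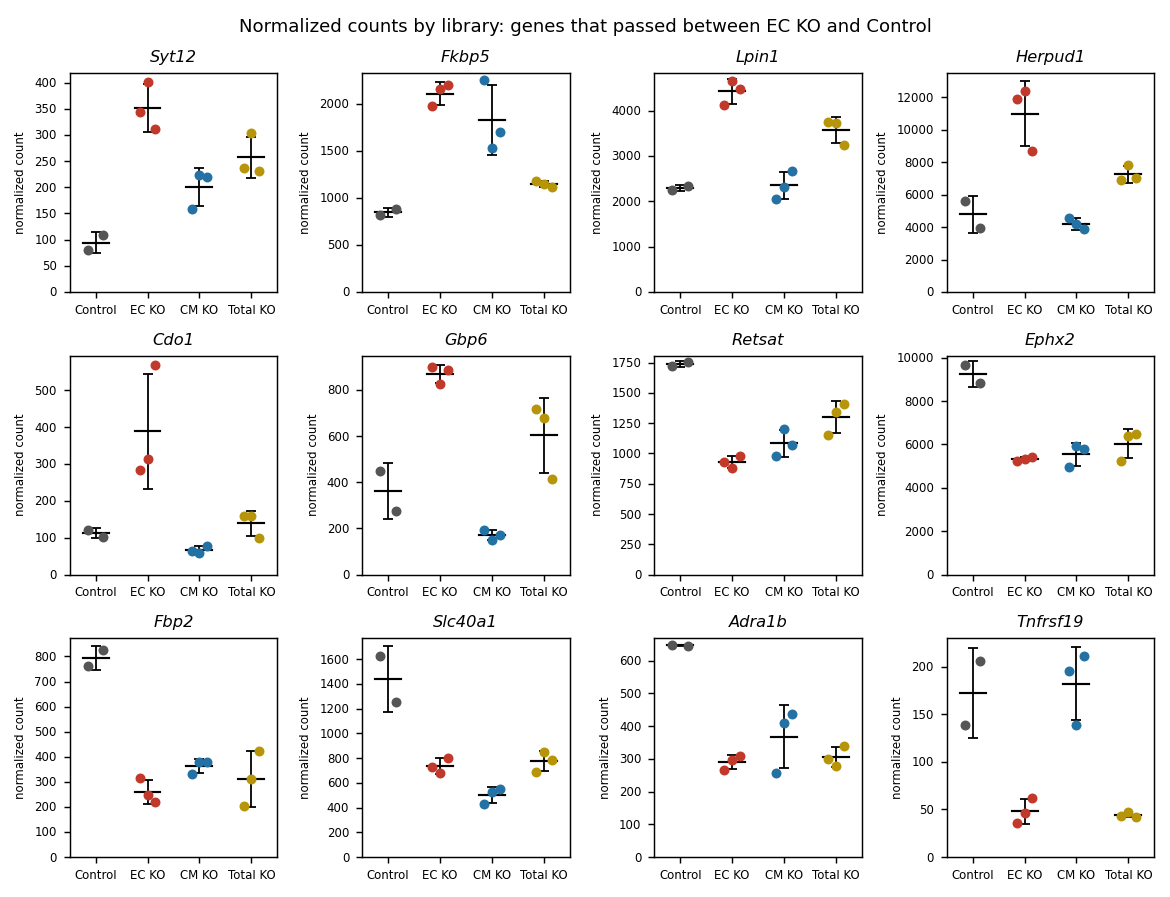
Normalized counts of 12 of the 41 genes that passed, by library and group, with the mean ± SD. For each gene the 3 EC KO libraries lie wholly above or wholly below the 2 Control libraries; CM KO and Total KO are drawn for comparison.

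Myc, the growth-promoting transcription factor, read 162 and 171 against 90.6, 75.3 and 89.3 (1.95-fold lower, adjusted p = 0.0342), and was the 1 of 24 immediate early genes that limma called. It passed in 3 of 11 fits with a library left out. DESeq2 called 2, Myc and Nr4a3, an orphan nuclear receptor gene that stood higher in EC KO (1.39, limma adjusted p = 0.275). That list had a median of -0.37, with 21 members lower and 3 higher. Of 18 cell cycle genes 16 stood higher, with a median of 0.70; limma, edgeR and DESeq2 called 0 of them, and 3 had an unadjusted p under 0.05, all higher. Rrm2, a subunit of ribonucleotide reductase, read 52.1 and 45.5 against 84.6, 101 and 75.2 (0.81, adjusted p = 0.164). The stress genes Nppa, Nppb and Myh7 stood at -0.24, -0.78 and 0.51, each with overlapping libraries (adjusted p = 0.88, 0.397 and 0.679).

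Markers of the cell types of the heart were read beside these genes. Of 20 endothelial markers 17 stood higher in EC KO, with a median of 0.18. Limma and edgeR called 0 of them and DESeq2 1 (Robo4), 6 were higher and 1 lower at an unadjusted p under 0.05, and the summed level was 28291 to 29879 in Control and 31123 to 36157 in EC KO. Pecam1, an adhesion molecule of endothelium, read 3583 and 3182 against 4048, 4554 and 4051 (0.32, adjusted p = 0.25), and Tek, which encodes Tie2, stood at 0.19 (adjusted p = 0.589). Medians were 0.05 for 16 cardiomyocyte markers, -0.23 for 14 fibroblast markers, -0.19 for 15 macrophage and monocyte markers and 0.04 for 12 pericyte and smooth muscle markers. Over the alternatives run, these medians ranged from 0.12 to 0.22 for endothelial, 0.01 to 0.09 for cardiomyocyte, -0.27 to -0.16 for fibroblast, -0.27 to -0.05 for macrophage and monocyte and -0.15 to 0.19 for pericyte and smooth muscle markers. Of 11 fat cell markers, Plin1, Lep and Ucp1 stood at 0 in all 5 libraries, Adipoq was at most 0.884, and the summed level was 611 to 708 in Control and 381 to 485 in EC KO. The 2 that were tested, Pck1 and Cidea, stood lower with libraries apart (-3.16 and -0.57, limma adjusted p = 0.283 and 0.0988). The 8 tested Schwann cell and neuron markers all stood lower, with a median of -0.41, and 0 passed by limma, edgeR or DESeq2 (1 at an unadjusted p under 0.05). RNAs retained in the nucleus had a summed level of 46420 to 63000 in Control and 67750 to 109521 in EC KO. Of the 6 tested, 4 stood higher and 2 lower, and limma, edgeR and DESeq2 called 0. Malat1 had overlapping libraries. The list median was 0.17, and -0.002 without EC KO replicate 1. The part of all these shifts in the results above was not tested.

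**Figure D5:**
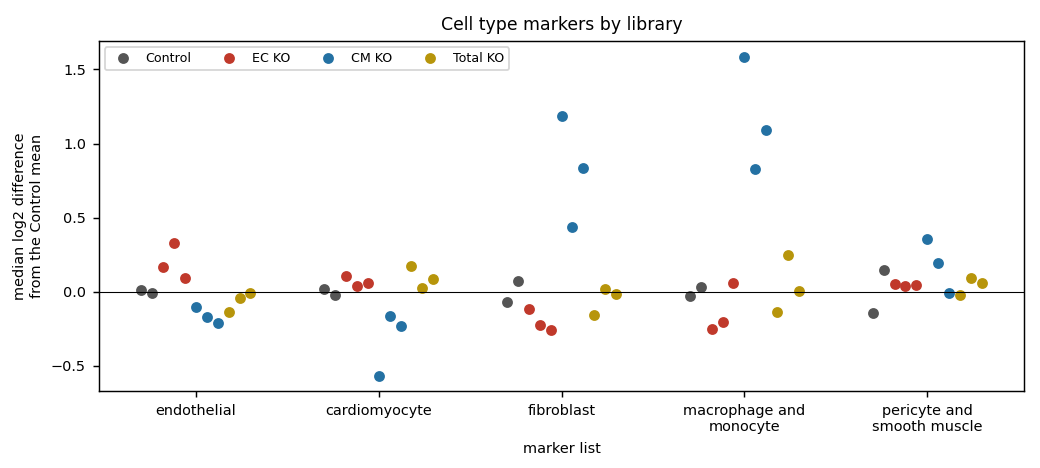
Median log2 difference from the Control mean of 5 cell type marker lists in each library. The endothelial list lies at 0.16, 0.33 and 0.09 in the 3 EC KO libraries and the fibroblast list at -0.12, -0.22 and -0.26.

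The other knockouts were compared with EC KO in the same model. Between EC KO and CM KO, 2479 genes passed (19.1%; 8.72% higher and 10.4% lower in EC KO), and among the 41 genes above 26 also differed from CM KO in the same direction as from Control. Both comparisons use the same EC KO libraries, so this count is a description. Lpin1 (CM KO mean 2348), Herpud1 (4212), Cdo1 (66.4) and Tnfrsf19 (182) were of this kind, with EC KO minus CM KO at 0.92, 1.37, 2.47 and -1.91 (adjusted p = 0.00032, 0.0003, 0.00022 and 0.00046). Slc40a1 was lower still in CM KO, at 500 (0.56, adjusted p = 0.012). The cell type markers also stood apart in the 3 CM KO libraries. Against the Control mean, their fibroblast medians were 1.19, 0.44 and 0.84, and their macrophage and monocyte medians 1.59, 0.83 and 1.09. The cardiomyocyte medians were -0.57, -0.16 and -0.23. The part of these marker shifts in the EC KO minus CM KO counts was not tested. Of the 41 genes, 14 also passed between CM KO and Control with the same sign, in a comparison that shares the Control libraries. The share of all genes that passed there is not given here, so the 14 is a description only. Ephx2, Retsat and Krt80 were among the 14, with CM KO means of 5559, 1083 and 139. Their CM KO minus Control differences were -0.74, -0.69 and 1.49 (limma adjusted p = 0.00788, 0.00884 and 0.00662). Gbp6 and 9230112J17Rik passed between CM KO and Control with the opposite sign, at -1.05 and 0.60 (limma adjusted p = 0.0251 and 0.033). Between EC KO and Total KO 5 genes passed (0.0385%): Fkbp5 (0.88), Iqgap3 (2.27), Spock2 (1.10), Trp53inp1 (1.19) and Ckap2l (3.44), all higher in EC KO.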

How the data were processed

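RNA of 11 mouse heart libraries was sequenced from 400 ng of total RNA after removal of ribosomal RNA with a stranded kit, per the labels. Per the submitters' processing notes, TopHat2, HTSeq 0.8.0 and DESeq2 (given as version 3.5) were used on mm10; counting mode, strand setting, annotation and filters are not given in the sources used here. The deposited signal values are read counts of genes after division, by the authors, by 1 factor per library: all 257620 values lay within 0.05 of a whole multiple of their library's step, so reads were recovered by division.

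Log2 of the value plus 1 was fitted for the 12976 of 23420 genes with a mean of at least 10, in 1 limma model (3.58.1, R 4.3.3) of 4 groups with a trended prior, adjusted by Benjamini-Hochberg and called under 0.05. edgeR 4.0.16 and DESeq2 1.42.0 on recovered reads, other pseudocounts, filters and scalings, a fit to the 2 groups alone, library weights, a robust prior and leaving out each library were alternatives. The steps were tested on simulated data. Replicates follow the order of deposit. Named are Cd36, genes with a curated symbol that passed, list members that passed or had the 3 lowest p, 6 rises and 6 falls with libraries apart that did not pass, and genes fixed by name; some of these are left out for length, and 1 gene that the rule names is not reported here. The members and the gene lists were chosen with earlier results of these data known. Gene positions are from GENCODE on GRCm38.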

Additional observations from a re-analysis of the deposited data

How the results depend on the processing

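No paired analysis was possible because the labels tie no Control library to an EC KO library. The count of 41 genes between EC KO and Control became 22 without the low-value filter, 27 when each library was weighted and 162 by DESeq2 (92 higher and 70 lower), and ranged from 5 to 84 with 1 library left out. The fit to EC KO and Control alone gave 43, of which 22 were among the 41. Cd36 did not pass in any alternative run, with log2 differences from -0.67 to -0.34. Nppa changed sign without Control replicate 2, at 0.14 against -0.24 (-0.62 without Control replicate 1); the cause was not tested. With 2 Control libraries, and 2268403 reads in EC KO replicate 1, low genes rest on few reads there.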

Other observations

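Some genes lay apart between the EC KO and Control libraries by a wide margin without passing by limma. Selenbp2, a selenium-binding protein gene, read 7.77 and 4.47 in Control and 84.6, 72.8 and 94.6 in EC KO (adjusted p = 0.126), against means of 5.18 in CM KO and 29.1 in Total KO. Lrrc52, an auxiliary subunit of potassium channels, read 38.9 and 20.1 against 151, 134 and 103 (adjusted p = 0.0972), and passed by edgeR and DESeq2 (adjusted p = 0.0484 and 2.87e-05). B3galt2, a galactosyltransferase gene, averaged 51.4 against 10.4 (adjusted p = 0.0952). Tac1, the precursor of substance P, averaged 64.7 against 14.0 (adjusted p = 0.0952). Both passed by DESeq2 (adjusted p = 0.0119 and 0.00538) and not by edgeR. For both, the value in EC KO replicate 1 was that of 1 read. Kap read 159 in Control replicate 1 and 4.47 in Control replicate 2, and 0, 0.836 and 0 in EC KO, so its level in Control rests on 1 library. Adjusted p-values are from limma unless another tool is named.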
